A study of Mus musculus with 6 samples.

Results

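The 9 genes described here encode trans-synaptic adhesion proteins of 3 families, the neurexins (Nrxn2, Nrxn3), the neuroligins (Nlgn1, Nlgn2, Nlgn3) and the leucine-rich repeat transmembrane proteins or LRRTMs (Lrrtm1, Lrrtm2, Lrrtm3, Lrrtm4). They were taken by symbol from a deposited table of 23067 genes, and all 9 had a row. The samples were dorsal striatum of mice at postnatal day 21, with 3 libraries from mice homozygous for Lrrk2G2019S (the knock-in group) and 3 from mice with both copies of Lrrk2 wild type. The G2019S change raises the activity of the kinase LRRK2 and is linked to familial Parkinson's disease. It is carried in the mouse's own Lrrk2 gene, and no other allele or agent is named for either group. All samples are titled male.

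Neurexins sit mainly on the presynaptic membrane and hold the synapse together by binding partners across the cleft. Neuroligins and LRRTMs are postsynaptic partners. Among neuroligins, Nlgn1 is known for excitatory synapses, Nlgn2 for inhibitory ones and Nlgn3 for both. LRRTMs act at excitatory synapses, where they help to hold AMPA receptors in place. Most neurons of the dorsal striatum are GABAergic projection neurons that inhibit one another and receive excitatory input from cortex and thalamus.

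Levels are given in FPKM, fragments per kilobase of transcript scaled to library size. Library sums ran from 314146 to 335508 FPKM, and 13999 to 14191 genes reached 1 FPKM in a library. The table holds no read counts, so the depth behind each value is unknown and precision was taken from the spread between libraries. Projection neuron markers were abundant in all 6 libraries, with Drd1 at 73.6 to 92.6 FPKM and Adora2a at 151 to 164 FPKM. The summed level of 12 cortical excitatory markers, none of them at 0, was 51.1 to 69.9 FPKM in wild type, 110 and 90.9 FPKM in replicates 1 and 2 of the knock-in and 53.6 FPKM in knock-in replicate 3. Most of the lower sums was Lamp5, at 41.1 to 48.2 FPKM in every library. The other 11 markers summed to 21.7, 10.3 and 8.81 FPKM in wild-type replicates 1 to 3 and to 63.3, 46.2 and 8.96 FPKM in the knock-in ones. Knock-in replicate 3 also stood apart in other ways, with a mitochondrial share of 23.2% of summed FPKM (17.99% to 20.5% elsewhere), 4 blood markers at 619 FPKM in sum (913 to 1190 FPKM elsewhere) and the highest sum of 12 projection neuron markers, 3131 FPKM (2827 to 2985 FPKM elsewhere). In wild-type replicate 2, 4 choroid plexus markers summed to 378 FPKM, nearly all of it Ttr, and to 2.55 to 17.0 FPKM in the other libraries. In knock-in replicate 3, 6 markers of myelinating oligodendrocytes summed to 2276 FPKM, below the 2675 to 3218 FPKM of the other 5. Xist, which is transcribed from the inactive X chromosome, stood at 27.2 to 39.3 FPKM in every library, and the Y-linked genes Kdm5d, Eif2s3y, Ddx3y and Uty had no row, which goes against the titles. The labels do not say whether each library is a different animal. The p-values below rest on the variation among these libraries, part of which could be technical.

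The 9 genes covered a wide range of levels and kept the same order of means in both genotypes, except that Nlgn3 lay below Nrxn2 in wild type and above it in knock-in. Nlgn2, the neuroligin of inhibitory synapses, was the most abundant, with a mean over the 6 libraries of 39.2 FPKM. Lrrtm1 followed at 20.7 FPKM. Their ranges, 37.9 to 40.0 and 19.3 to 22.1 FPKM, overlapped neither with each other nor with the genes that followed. Nrxn3 at 13.9 FPKM, Lrrtm3 at 13.4 FPKM, Nlgn3 at 12.5 FPKM and Nrxn2 at 12.5 FPKM formed a middle group whose neighbours overlapped in range, so no order among them is clear. Lrrtm2, at 9.59 FPKM, lay below Nrxn2 in 5 of 6 libraries. Nlgn1, the neuroligin of excitatory synapses, stood at 3.85 FPKM, below Lrrtm2 in all 6 libraries. Lrrtm4 was lowest at 1.78 FPKM and lay below Nlgn1 in all 6 libraries, although the ranges overlapped.

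**Figure D1:**
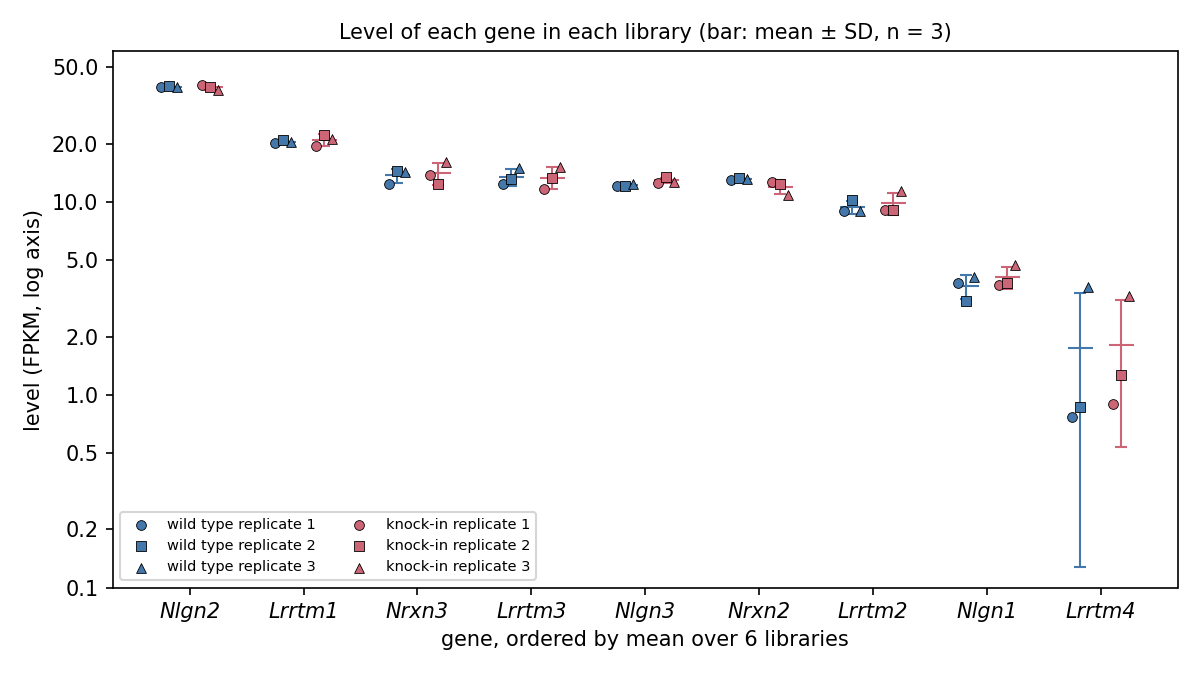
Level of each of the 9 genes in FPKM on a log axis, with wild-type libraries in blue and knock-in libraries in red, a separate marker shape for each replicate number, and bars at the mean ± SD of 3 libraries. Nlgn2 and Lrrtm1 stand above the other genes in every library, and Lrrtm4 is split between 2 libraries above 3 FPKM and 4 libraries at 0.766 to 1.26 FPKM.

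The question put to the genotypes was whether any of these adhesion genes changed its messenger RNA level with the G2019S change, in a series concerned with AMPA receptor trafficking. None of the 9 was called in either direction at an adjusted p under 0.05 in limma, where 3 of 14156 tested genes were called (0.0212%). At an unadjusted p under 0.05 the count was also 0 of 9, against 604 of all tested genes (4.27%). Of the 9 differences 6 were above 0 and 3 below, with a median of 0.03 on the log2(FPKM + 1) scale, where the median of all tested genes was -0.01 and 43.6% lay above 0. This split depended on the setting. It was 8 above and 1 below under median-of-ratios scaling (median 0.06), where 54.1% of all tested genes lay above 0. With the mean cortical marker level as a covariate it was 7 and 2 (median 0.145), against 39.5% of all tested genes. Without knock-in replicate 3 it was 4 and 5 (median -0.04), against 47.9%. Cortical marker sums were highest in knock-in replicates 1 and 2, so the covariate varied partly with genotype. Differences fitted with it cannot fully separate cortical tissue from genotype. With none of these changes, the 9 differences ran from -0.12 for Nrxn2 to 0.12 for Nlgn1. Their adjusted p was 0.997 in each case. In bulk tissue, fewer cells of a type and less RNA per cell cannot be told apart.

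**Figure D2:**
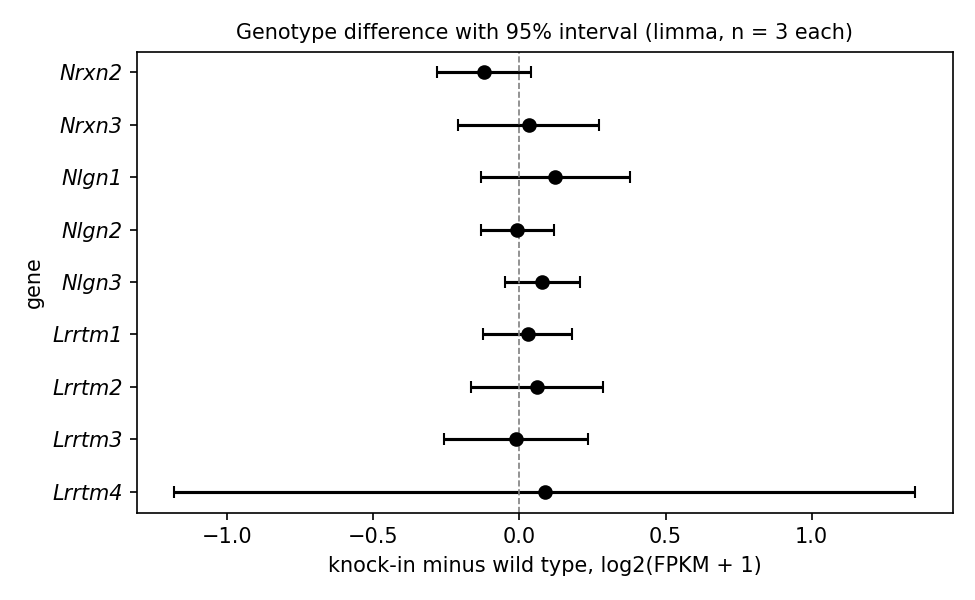
Difference between knock-in and wild type on the log2(FPKM + 1) scale for each gene (point) with its 95% interval from limma (bar), 3 libraries per genotype. All 9 intervals span 0, and the interval of Lrrtm4, from -1.18 to 1.36, is far wider than those of the other genes.

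Nrxn2, one of the presynaptic neurexins, was at 12.9, 13.2 and 13.1 FPKM in wild-type replicates 1 to 3 and at 12.7, 12.3 and 10.9 FPKM in the knock-in ones. Every knock-in library lay below every wild-type library, with most of the gap coming from knock-in replicate 3. Means were 13.1 ± 0.158 and 11.9 ± 0.956 FPKM (SD, n = 3 each), a log2 difference of -0.12 (SE 0.07, adjusted p = 0.997 in limma) with a 95% fold interval of 0.823 to 1.03. Without knock-in replicate 3 the difference was -0.06. The same library stood apart in oligodendrocyte, blood and projection neuron markers and in mitochondrial share, as given above, and the part these play in the Nrxn2 value was not tested. With the mean level of the cortical markers as a covariate the difference was -0.198, still not called (adjusted p = 0.437).

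Nrxn3, the other neurexin measured here, was at 12.4, 14.5 and 14.2 FPKM in the 3 wild-type libraries and at 13.8, 12.3 and 16.1 FPKM in knock-in. The knock-in libraries held both the lowest and the highest value, so the genotypes overlapped throughout. The log2 difference was 0.03, with a 95% fold interval of 0.864 to 1.21, and 0.171 with the cortical covariate. Nrxn2 made up 48.9 ± 1.84% of the sum of Nrxn2 and Nrxn3 in wild type and 46.1 ± 5.07% in knock-in (SD, n = 3 each), and its lowest share, 40.4%, was in knock-in replicate 3. Both genes use several promoters and many splice forms, which a value per gene does not separate.

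Among the neuroligins Nlgn3 was at 12.0, 12.0 and 12.4 FPKM in the 3 wild-type libraries and at 12.6, 13.4 and 12.7 FPKM in knock-in. All 3 knock-in libraries lay above all 3 wild-type ones, by a margin of less than 0.2 FPKM between the nearest libraries. Means were 12.1 ± 0.214 and 12.9 ± 0.449 FPKM (SD, n = 3 each), and the log2 difference of 0.08 (SE 0.05, adjusted p = 0.997 in limma) came with a 95% fold interval of 0.966 to 1.15. Nlgn3 is X-linked. Its 2 highest libraries, knock-in replicates 2 and 3, had the lowest and the highest Xist, at 27.2 and 39.3 FPKM. The part of X-linkage in the Nlgn3 levels was not tested. Nrxn2 and Nlgn3 were thus the 2 of 9 genes whose genotypes did not overlap. Among all tested genes 1346 (9.51%) showed such a separation, 932 with knock-in below (6.58%) and 414 with knock-in above (2.92%).

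Nlgn2 was the steadiest of the 9 genes. It read 39.2, 39.5 and 39.1 FPKM in wild type and 40.0, 39.3 and 37.9 FPKM in knock-in. The 6 values lay within a ratio of 1.06 of each other, with a coefficient of variation (SD over mean) of 1.76%, against a median of 8.45% over all tested genes. The genotype difference was -0.0075 on the log2 scale, and its 95% interval of the fold, 0.912 to 1.08, bounds a change in either direction.

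Nlgn1 was at 3.80, 3.07 and 4.06 FPKM in the 3 wild-type libraries and at 3.68, 3.80 and 4.67 FPKM in knock-in. The genotypes overlapped, with the lowest value in wild-type replicate 2 and the highest in knock-in replicate 3. The log2 difference of 0.12 had a 95% fold interval of 0.912 to 1.30, and fell to 0.03 without wild-type replicate 2 and to 0.04 without knock-in replicate 3. The first of these is the library with the choroid plexus signal, whose part was not tested. With the cortical covariate the Nlgn1 difference was 0.226.

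Summed over the 3 neuroligins, the level was 55.1 ± 0.462 FPKM in controls and 56.0 ± 0.609 FPKM in knock-in mice (SD, n = 3 each). Nlgn2 took 71.3 ± 0.996% of that sum in wild type and 69.8 ± 1.29% in knock-in, Nlgn3 took 22.1 ± 0.24% and 23.0 ± 0.71%, and Nlgn1 took 6.61 ± 0.877% and 7.24 ± 1.05%. The neuroligin of inhibitory synapses thus held the largest share in each of the 6 libraries. The share of Nlgn2 overlapped between the genotypes, since knock-in replicate 1 at 71.1% lay within the wild-type range of 70.4% to 72.4%.

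Lrrtm1, a neurexin ligand of excitatory synapses and the most abundant LRRTM, was at 20.1, 20.8 and 20.4 FPKM in the 3 wild-type libraries and at 19.3, 22.1 and 21.2 FPKM in knock-in. The knock-in libraries fell on both sides of the wild-type range. The log2 difference was 0.03, with a 95% fold interval of 0.918 to 1.13.

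Lrrtm2, a close relative known for its role in keeping AMPA receptors at the synapse, was at 8.90, 10.1 and 8.995 FPKM in the 3 wild-type libraries and at 9.08, 9.06 and 11.3 FPKM in knock-in. Each genotype had 1 library above 10 FPKM and the other values close to 9 FPKM. The log2 difference of 0.06, with a 95% fold interval of 0.892 to 1.22, turned to -0.04 without knock-in replicate 3 and was 0.197 with the cortical covariate.

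Lrrtm3 was at 12.3, 13.1 and 14.9 FPKM in the 3 wild-type libraries and at 11.6, 13.3 and 15.1 FPKM in knock-in. The 2 genotypes covered almost the same range, and the log2 difference was -0.01 (0.145 with the cortical covariate), with a 95% fold interval of 0.836 to 1.18.

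Lrrtm4, which binds heparan sulphate proteoglycans as well as neurexins, differed from the other 8 genes in its spread. It was at 0.766 and 0.865 FPKM in wild-type replicates 1 and 2 and at 3.63 FPKM in wild-type replicate 3. In knock-in it was at 0.899 and 1.26 FPKM in replicates 1 and 2 and at 3.26 FPKM in replicate 3. Each genotype therefore held 1 high and 2 low libraries, and the highest value was 4.74 times the lowest. The coefficient of variation over the 6 libraries was 73.4%, where the other 8 genes had 1.76% to 13.5%. Of 4060 tested genes with a mean from 1 to 3 FPKM, 34 (0.837%) had a higher one, and the median there was 11.9%.

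Genotype means of Lrrtm4 were 1.75 ± 1.63 and 1.81 ± 1.27 FPKM (SD, n = 3 each), a log2 difference of 0.09 (SE 0.50, adjusted p = 0.997 in limma). Its 95% interval of the fold, on the log2(FPKM + 1) scale, ran from 0.441 to 2.56 and so took in a change of 2-fold. With the replicate number as a block the difference was again 0.09, with an SE of 0.098, and was not called. The sign depended on single libraries, high and low alike. The difference was 0.54 when wild-type replicate 3 was left out, -0.26 when knock-in replicate 3 was, and -0.159 and -0.119 when wild-type replicates 1 and 2 were. With the cortical covariate it was 0.697. The libraries high in Lrrtm4 had sums of 8.81 and 8.96 FPKM for the cortical markers other than Lamp5. Those low in Lrrtm4 had 21.7 and 10.3 FPKM in wild-type replicates 1 and 2 and 63.3 and 46.2 FPKM in the knock-in ones. The part of cortical tissue in the Lrrtm4 levels was not tested. Nothing in the labels says that libraries with the same number belong together.

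**Figure D3:**
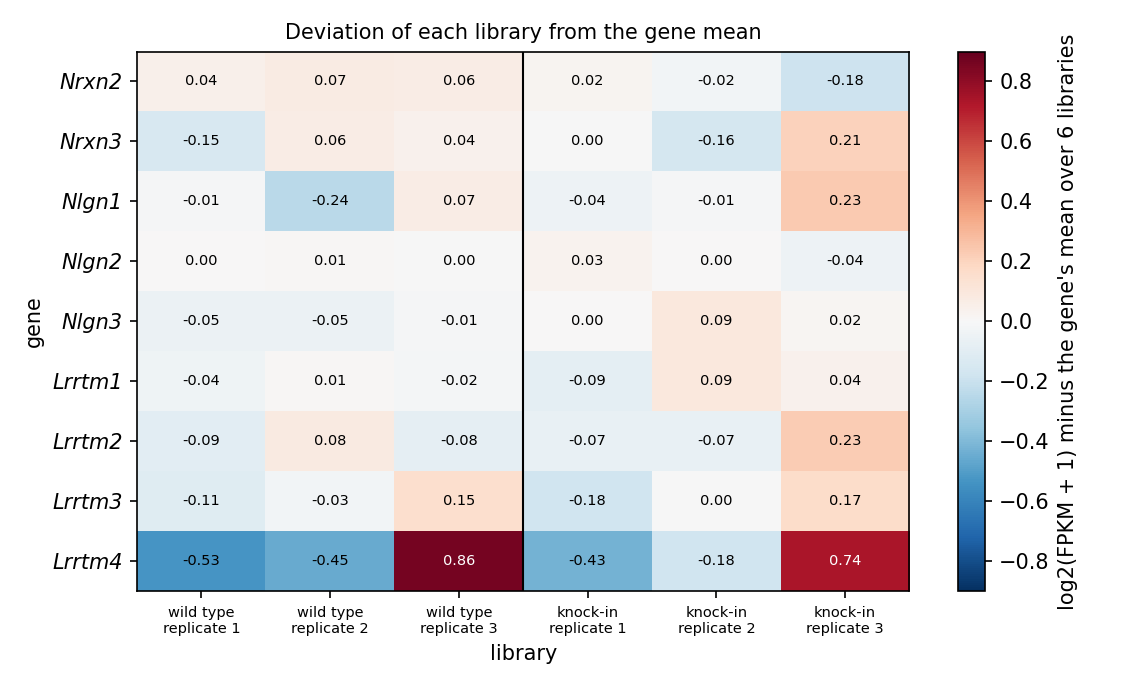
Deviation of each library (columns) from the gene's own mean over the 6 libraries (rows), as log2(FPKM + 1), with red above and blue below the mean and wild type to the left of the line. Lrrtm4 deviates by 0.86 and 0.74 in the replicates numbered 3 of wild type and knock-in, and Nrxn3, Nlgn1 and Lrrtm3 are also above their means in those 2 libraries.

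The 4 LRRTMs together summed to 45.0 ± 2.97 FPKM in controls and 45.9 ± 4.99 FPKM in knock-in mice (SD, n = 3 each). Lrrtm1 took 45.6 ± 2.71% and 45.8 ± 3.55% of the sum, Lrrtm3 took 29.8 ± 1.14% and 29.0 ± 0.605%, and Lrrtm2 took 20.8 ± 1.93% and 21.4 ± 1.41%. The share of Lrrtm4 was 7.58% and 6.41% in its high libraries and 1.82% to 2.75% in the other 4. The LRRTM sum was highest in the same 2 libraries, at 48.0 and 50.9 FPKM, against 40.9 to 45.7 FPKM elsewhere.

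Likeness between the genes was measured as the root mean square difference over the 6 libraries of log2(FPKM + 1), each gene centred on its own mean. Lrrtm1 and Nlgn3 were each other's nearest gene, at 0.05. Nrxn3 and Lrrtm2 were likewise nearest to each other, at 0.07, and both peaked in knock-in replicate 3. Lrrtm4 was the farthest gene from each of the other 8, and its nearest was Lrrtm3 at 0.46. All points share the 6 libraries, and steady genes lie close to one another on this measure by construction.

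The positions and neighbours of the genes bear on how their reads could be assigned. All positions are on GRCm38 with the gene models of GENCODE release M21, matched by identifier. Nrxn2 (ENSMUSG00000033768) lies on chromosome 19 at 6418731 to 6544169, and 889 of its exon bases lie opposite exons of other genes, among them the antisense Gm14964 at 1.44 to 2.66 FPKM. Nrxn3 (ENSMUSG00000066392) lies on chromosome 12 at 88722876 to 90334935, with 439 exon bases opposite Gm37980, a gene at 0.080 to 0.259 FPKM. Nlgn1 (ENSMUSG00000063887) lies on chromosome 3 at 25426215 to 26332460. Over 1229 exon bases it faces the antisense gene A830092H15Rik, at 0.552 to 0.852 FPKM. Nlgn2 (ENSMUSG00000051790) lies on chromosome 11 at 69823122 to 69837784. These models span very different lengths, from 14663 bases for Nlgn2 to 1612060 bases for Nrxn3. Nlgn3 (ENSMUSG00000031302) lies on chromosome X at 101299168 to 101325963 and shares 3823 exon bases with Gm21986 on the same strand, a gene at 0.181 to 0.696 FPKM. Lrrtm4 (ENSMUSG00000052581) lies on chromosome 6 at 80018877 to 80810143, with 8 transcripts in the annotation, and over 1543 exon bases it faces the antisense gene Gm4409, which had no row. The strand setting of the counting is not given in the sources used here, so reads of overlapping genes on opposite strands may not have been told apart.

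The other LRRTM genes sit inside the genes of alpha-catenins, proteins that tie cadherins to actin, on the opposite strand. Lrrtm1 (ENSMUSG00000060780) lies on chromosome 6 at 77242689 to 77257791 within Ctnna2, Lrrtm2 (ENSMUSG00000071862) on chromosome 18 within Ctnna1, and Lrrtm3 (ENSMUSG00000042846) on chromosome 10 at 63928472 to 64090277 within Ctnna3. Only Lrrtm2 shares exon bases with its host, 95 of them. Host and guest differed in level in both directions. Ctnna1 stood at 32.7 ± 2.48 and 31.9 ± 0.641 FPKM in control and knock-in striatum, above Lrrtm2. Ctnna2 stood at 18.1 ± 0.566 and 17.9 ± 0.73 FPKM (SD, n = 3 each), below Lrrtm1. Ctnna3 was at 0.224 to 0.300 FPKM, far below Lrrtm3, and was not tested for its low level. Neither Ctnna1 nor Ctnna2 was called.

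Genes that work with neurexins and neuroligins were described from lists chosen for their known roles. At an unadjusted p under 0.05 in limma, 1 gene of these lists passed, C1ql1, and 0 were called after adjustment. The splits below stand beside 43.6% of all tested genes above 0. That share was 54.1% with median-of-ratios scaling, 49.4% with quantile normalization, 47.9% without knock-in replicate 3 and 48.5% without both libraries numbered 3. Of 25 extracellular partners 20 were tested, 10 above 0 and 10 below in knock-in, with a median log2 difference of 0.0090, and 0 were called. The split was 14 and 6 with median-of-ratios scaling, and 15 and 5 without both libraries numbered 3. C1ql1, a secreted synaptic organizer that oligodendrocyte precursors also express, stood at 7.04 ± 0.684 and 5.82 ± 0.762 FPKM in control and knock-in striatum (SD, n = 3 each), with a log2 difference of -0.24 (adjusted p = 0.997 in limma). Its lowest value, 4.97 FPKM, was in knock-in replicate 3. There 5 markers listed for oligodendrocyte precursors summed to 126 FPKM, where the other libraries had 165 to 183 FPKM. Most of each sum was Olig1, at 80.0 FPKM there and 100 to 115 FPKM elsewhere. Gpr17 and Olig2 were also lowest there. Pdgfra differed little, at 5.97 FPKM there and 6.20 to 6.66 FPKM elsewhere, and Cspg4 was at 2.08 FPKM against 2.19 to 2.85 FPKM. The part of these cells in the C1ql1 difference was not tested. Cbln2, a secreted bridge between neurexins and delta glutamate receptors, was at 0.960, 0.405 and 0.807 FPKM in the 3 wild-type libraries and at 1.89, 1.42 and 0.825 FPKM in knock-in. Its highest values were in the 2 knock-in libraries with the highest cortical marker sums, and the part of cortical tissue was not tested. Dystroglycan (Dag1), a neurexin ligand at inhibitory synapses, stood at 21.9 ± 0.929 and 18.9 ± 2.36 FPKM, and the calsyntenin gene Clstn2 at 3.73 ± 0.237 and 4.25 ± 0.266 FPKM (SD, n = 3 each).

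Of the scaffolds that bind neurexins or neuroligins inside the cell, 24 genes were tested, 10 above 0 and 14 below, with a median of -0.03, and 0 were called. Cask, the kinase-like scaffold of the neurexin tail, stood at 6.34 ± 0.121 and 6.08 ± 0.123 FPKM in control and knock-in striatum (SD, n = 3 each). Shank1, a scaffold of excitatory synapses, read 11.5, 8.12 and 4.95 FPKM in the 3 knock-in libraries, replicates 1 to 3 in turn, and at 6.45 ± 0.13 FPKM in wild type. As with Cbln2, the 2 highest values of Shank1 were in the libraries with the most cortical marker signal, and the part of cortical tissue was not tested. The other 2 genes with the smallest p were Gopc, at 3.44 ± 0.623 and 4.06 ± 0.364 FPKM, and Syt4, at 27.6 ± 1.42 and 30.4 ± 3.06 FPKM.

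Among 39 tested genes of other synaptic adhesion families, 15 were above 0 and 24 below, with a median of -0.03, and 0 were called. The list thus had 38.5% above 0, against 43.6% of all tested genes. With median-of-ratios scaling the split was 19 and 20, where 54.1% of all tested genes lay above 0. The split of the list therefore depends on the scaling, as that of all genes does. N-cadherin (Cdh2) stood at 6.99 ± 0.158 and 6.33 ± 0.146 FPKM in control and knock-in striatum, and the receptor phosphatase gene Ptprd at 7.70 ± 0.371 and 6.98 ± 0.434 FPKM (SD, n = 3 each). The ephrin receptor gene Ephb1 stood at 14.0 ± 0.453 and 12.9 ± 0.557 FPKM, and Il1rap, a ligand of receptor phosphatases, at 3.00 ± 0.248 and 2.65 ± 0.13 FPKM.

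Splicing factors that act on neurexin or neuroligin transcripts numbered 11 tested genes, 6 above 0 and 5 below, with a median of 0.011, and 0 were called. The split was 7 and 4 with median-of-ratios scaling and 5 and 6 with quantile normalization. Nova2, a neuronal splicing factor, was at 10.6, 9.89 and 10.3 FPKM in the 3 wild-type libraries and at 10.6 FPKM in knock-in replicate 1, but at 2.69 and 2.78 FPKM in the other two knock-in libraries. The log2 difference, -1.05, missed the threshold (adjusted p = 0.997 in limma), with knock-in replicate 1 at the wild-type level. Without that library the difference was -1.59 and was called (adjusted p = 0.00135 in limma), in a setting where 11 of 14133 tested genes were called. This setting leaves out the only knock-in library at the wild-type level, so the call does not describe the knock-in group as a whole. Khdrbs3, which encodes the neurexin splicing regulator SLM2, stood at 21.5 ± 1.34 and 24.5 ± 3.36 FPKM (SD, n = 3 each), and Rbfox1, the most abundant of the 11, at 76.0 ± 1.60 and 79.2 ± 5.23 FPKM.

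Of 9 tested sheddases and gamma-secretase subunits, which cut neurexins and neuroligins from the membrane, 3 were above 0 and 6 below, with a median of -0.02, and 0 were called. The split turned to 5 and 4 with median-of-ratios scaling and to 6 and 3 without knock-in replicate 3. Psenen, a gamma-secretase subunit, stood at 22.1 ± 2.30 and 18.2 ± 3.86 FPKM in control and knock-in striatum, and the sheddase gene Adam10 at 10.6 ± 0.884 and 11.1 ± 0.779 FPKM (SD, n = 3 each).

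**Figure D4:**
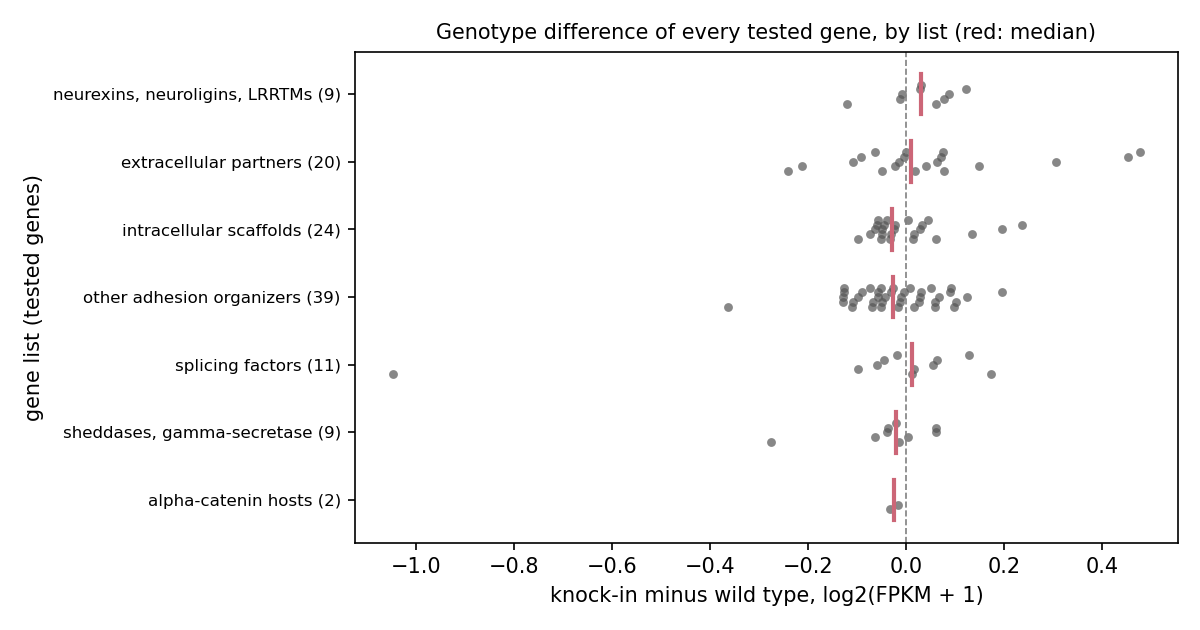
Difference between knock-in and wild type on the log2(FPKM + 1) scale for every tested gene of each list (points, spread vertically for legibility), with the list's median as a red line and the number of tested genes in brackets. Medians lie between -0.03 and 0.03, and Nova2 at -1.05 is the point farthest from 0.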

How the data were processed

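RNA was measured by bulk sequencing in 6 libraries of dorsal striatum, 3 per genotype. Per the file headers, the authors deposited 1 FPKM value per gene and library. The submitters' processing notes list FastQC, HISAT2, SAMtools and StringTie, without versions or roles. For genome build, annotation and strand setting the entry is: not given in the sources used here. Columns were matched to samples by the codes in the labels. The table holds 0 values at 0, so genes at 0 in a library appear to have no row.

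To look for whole reads, the low values of each library were scaled by length in 7932 genes with 1 annotated transcript. Between 36.4% and 40.2% of values lay within 0.1 of a whole number, against 22.1% to 24.4% with lengths shuffled, so counts were not recovered.

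Values were tested as log2(FPKM + 1), which understates changes of low genes, for 14156 genes averaging 1 FPKM or more, in limma 3.58.1 (R 4.3.3) with a robust prior variance that follows the mean level, two-sided, with Benjamini-Hochberg adjustment over all tested genes, called under 0.05. The scripts were tested on simulated data. All 9 members passed the minimum level. Fold intervals are on the log2(FPKM + 1) scale. Alternatives changed the pseudocount (0.1), minimum level, scaling, variance model, replicate block, cortical covariate and the libraries used.

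Members and lists were chosen with earlier results of these data known. Named from each list were up to 4 genes with the smallest p, called genes, host genes and splicing factors. Adam10 falls inside that rule, although Aph1b, with a smaller p, was not named. The genes overlapping members fall outside it. Both choices were made with the values in view. Positions are from GENCODE M21, which held 22972 of 23067 identifiers. Other genes of the 3 families are not analysed here. Same-numbered libraries correlated in their deviations from genotype means at -0.01, -0.07 and 0.19, and differently numbered ones at -0.18 to 0.21. With 3 libraries per genotype, these values cannot decide whether the numbers pair the samples.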

Additional observations from a re-analysis of the deposited data

How the results depend on the processing

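Of the 9 genes, 0 were called in each of the 15 alternatives that tested them. Nrxn2 stayed below 0 and Nlgn1 and Nlgn3 above 0 in all of those run for them (log2 differences of -0.198 to -0.0582, 0.0309 to 0.226 and 0.0517 to 0.103). Leaving out single libraries moved the others across 0, with ranges of -0.0635 to 0.117 for Nrxn3, -0.0247 to 0.013 for Nlgn2, -0.012 to 0.0807 for Lrrtm1, -0.0372 to 0.115 for Lrrtm2, -0.0984 to 0.0758 for Lrrtm3 and -0.261 to 0.537 for Lrrtm4. Median-of-ratios scaling turned Nlgn2 to 0.0185 and Lrrtm3 to 0.0125, and the cortical covariate turned Lrrtm3 to 0.145 and moved Nrxn3 to 0.171, Lrrtm2 to 0.197, Nlgn1 to 0.226 and Lrrtm4 to 0.697, none of them called. Without both libraries numbered 3, a setting chosen after the levels of Lrrtm4 were seen, Nrxn3 was at -0.0375, Nlgn2 at 0.00955 and Lrrtm2 at -0.0612, and Lrrtm4 fell below the minimum level. Lrrtm4 and Nlgn1 were not tested at a minimum of 5 FPKM. The causes were not tested. Over all genes, leaving out single libraries gave 3 to 15 calls against 3, and 0 to 1 among the list genes, the 1 being Nova2 without knock-in replicate 1. With a replicate block 2 genes and 0 of the 9 were called. Of all tested genes 43.6% were above 0, 54.1% with median-of-ratios scaling and 39.5% with the cortical covariate, which varied partly with genotype. The depth is unknown, so its effect on these values was not measured.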

Other observations

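Lrrtm4 was 1 of 3 tested genes for which both libraries numbered 3 lay at least 2-fold above each of the other 4, a count made after its levels were seen. The other two were the microRNA gene Mir8104, at 3.08 and 3.40 FPKM against 0.135 to 0.205 FPKM, and Lrch4, a gene of the leucine-rich repeat and calponin homology family, at 4.52 and 8.64 FPKM against 1.29 to 1.92 FPKM.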
